A study of Mus musculus with 15 samples.

Results

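The 6 genes described here encode the E proteins, Tcf3, Tcf4 and Tcf12, and 3 of their inhibitors, Id1, Id2 and Id3. Members were taken by gene symbol, as every probe of the scanner table that the platform annotation gives to one of these symbols. These are 6 of the 19057 genes the annotation names, and 14 of the 45263 probes, of which 9 belong to the E protein genes and 5 to the ID genes. RNA was measured on 15 Illumina bead arrays in 5 groups of 3. The control group is labelled wild type and its titles read EAAE-OHT. The labelled deficient group carries the label Bcl11a-deficient and EAAE+OHT in its titles. The Bcl2 control group is wild type with Bcl2 overexpression (Bcl2-OHT), and the Bcl2 labelled deficient group is Bcl2-rescued and Bcl11a-deficient (Bcl2+OHT). Bcl11a is a zinc finger protein of the B lineage, and Bcl2 is a protein that blocks cell death. These 4 groups are pro-B cells, early precursors committed to the B lineage, from mice aged 6 to 8 weeks of mixed C57BL/6 and 129S5 background. Bone marrow was cultured for 10 days with IL-7, Flt3L and SCF, each at 50 ng/ml. The last group holds DN3 cells, an early T cell stage, of genotype Bcl11bCKO/CKO and strain C57B7, also aged 6 to 8 weeks. Its labels carry the same culture text and give the tissue only as lymphocytes. OHT is commonly 4-hydroxytamoxifen. The titles give +OHT for both deficient groups and -OHT for both control groups, so drug and deletion cannot be told apart. The sources used here give neither the promoter that drives Bcl2 nor a Cre line.

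E proteins are basic helix-loop-helix transcription factors that bind as dimers to E-box sites (CANNTG) and switch on genes of early B and T cell development. ID proteins have the helix-loop-helix that pairs with an E protein but lack the basic region that touches DNA, so a dimer with an ID protein does not bind. Tcf3 is needed for B cell commitment, Tcf12 acts with it most strongly in thymocytes, and Tcf4 is known as the regulator of plasmacytoid dendritic cells. Id2 is known for natural killer and innate lymphoid cells, and Id3 for the response of thymocytes to receptor signals.

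Id2 and Id3 are the members that changed in opposite directions among the pro-B groups, and the 250 bases before their annotated starts are shown for that reason. The sequences are RefSeq's, of build GRCm38.p6, read on the gene's strand, and capitals mark the E-box motif CANNTG.
Id2, chr12:25096093-25096342, minus strand: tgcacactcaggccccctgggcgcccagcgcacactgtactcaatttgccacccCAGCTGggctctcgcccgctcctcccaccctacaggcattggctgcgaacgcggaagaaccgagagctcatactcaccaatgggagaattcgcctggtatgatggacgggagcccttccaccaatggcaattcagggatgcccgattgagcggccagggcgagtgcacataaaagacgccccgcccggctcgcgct
Id3, chr4:136143572-136143821, plus strand: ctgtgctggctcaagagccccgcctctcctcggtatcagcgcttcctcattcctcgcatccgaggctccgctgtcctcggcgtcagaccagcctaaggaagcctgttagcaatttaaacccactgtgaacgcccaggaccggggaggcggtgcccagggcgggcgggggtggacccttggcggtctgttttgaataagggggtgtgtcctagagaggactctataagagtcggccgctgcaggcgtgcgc
The Id2 stretch holds 1 CANNTG, in the form CAGCTG, 196 bases before the start. The Id3 stretch holds none. Searched on both strands in the same window of 32851 RefSeq promoters, CANNTG occurred in 66.2% and CAGCTG, which is also counted as CANNTG, in 4271 of them. Promoters were matched for 4 of the 6 members. A match describes these letters only, and binding was not measured.

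All 9 early B cell genes measured, among them Cd79b and Ebf1, were above background on each of the 12 pro-B arrays. All 11 T cell genes measured, of 14 listed, were above background on the 3 DN3 arrays. Measured means above background on at least 3 arrays. Only 5 of the 11 reached that on the pro-B arrays alone. The others, among them Cd3e, were measured only through the DN3 arrays, so they give this count no support. Of the genes not measured, Cd5 was not above background on enough arrays, and Lck and Tcf7 had no named probe. The brightest probe of Bcl11a itself went against the label without Bcl2, being higher in the labelled deficient cells by 1.87 ± 0.20 (log2 fold change ± SE, limma adjusted p = 0.0072). With Bcl2 that probe was lower by the label, at -0.79 ± 0.20 (adjusted p = 0.0172). The second Bcl11a probe, ILMN_1257463, passed in neither comparison, at -0.25 ± 0.44 without Bcl2 and -0.92 ± 0.44 with it (limma adjusted p = 0.875 and 0.175). The deficient groups are therefore named by their label throughout. Control replicate 3 stood apart, with 11473 probes above background against 14946 to 16422 on the other pro-B arrays. It correlated at 0.937 and 0.938 with the other controls, which correlated at 0.988 with each other. For some results, values without it or ranges with any 1 array left out are therefore given.

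Of the 14 probes, 8 were above background on at least 3 of the 12 pro-B arrays and 9 on at least 3 of all 15. Above background means a detection p under 0.05, the detection p being 1 minus the deposited detection value. Values below are normalised log2 intensities, in the order of replicates 1 to 3, from the pro-B arrays normalised together. Levels of different probes are not compared, since probes differ in brightness. In bulk RNA, fewer cells of a type and less RNA per cell cannot be told apart.

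Tcf3 was carried by 2 probes. Both were low on control replicate 3, but they differed on other arrays, as on labelled deficient replicate 1 (8.22 and 7.55). The probe ILMN_2596277 read 8.32, 8.35 and 5.73 in control cells and 8.22, 8.11 and 7.69 in labelled deficient cells. It read 7.62, 7.42 and 8.05 in Bcl2 control cells and 8.00, 7.18 and 7.99 in Bcl2 labelled deficient cells. All groups overlap, and control replicate 3 is the only pro-B array on which neither Tcf3 probe rose above background, with detection values of 0.832 and 0.694. The second probe, ILMN_2596278, read 8.21, 8.60 and 5.36 in control cells and 7.55, 8.62 and 8.05 in labelled deficient cells. It read 8.15, 7.33 and 8.28 with Bcl2 alone and 8.02, 7.66 and 8.08 with Bcl2 and the deficient label. Its low array is again control replicate 3.

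Tcf4 rested on 1 bright probe, ILMN_2636463, above background on all 15 arrays. It read 11.92, 12.19 and 12.96 in control cells and 12.12, 12.25 and 12.60 in labelled deficient cells. With Bcl2 it read 12.15, 12.49 and 12.43 in control cells and 12.99, 12.92 and 12.59 in labelled deficient cells. The Bcl2 labelled deficient arrays all lie above the Bcl2 control arrays, but control replicate 3 is as high as they are. The other 2 Tcf4 probes, ILMN_1214146 and ILMN_1225984, were above background on 0 of 15 arrays.

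Tcf12 had 4 probes, of which ILMN_2722602 and ILMN_2976577 were above background on 0 of 15 arrays. The probe ILMN_1215928 read 7.65, 7.98 and 8.54 in control cells and 7.84, 8.08 and 8.03 in labelled deficient cells. It read 7.87, 8.03 and 8.48 in Bcl2 control cells and 7.86, 8.26 and 8.36 in Bcl2 labelled deficient cells, so all 4 groups overlap. The probe ILMN_1258340, designed on the cDNA AK078415, was above background on 6 of 12 pro-B arrays. It read 5.16, 5.08 and 7.88 in control cells and 5.25, 4.98 and 6.15 in labelled deficient cells. It read 5.26, 5.40 and 6.38 in Bcl2 control cells and 6.18, 6.23 and 5.92 in Bcl2 labelled deficient cells. In each group without Bcl2 its only array above background was replicate 3, which lay on slide 2, and the part of the slide in this was not tested.

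Id1 had 1 probe, ILMN_2672190, above background on 10 of 12 pro-B arrays. It read 5.75, 6.38 and 5.38 in control cells and 6.41, 6.23 and 5.98 in labelled deficient cells. It read 6.16, 6.12 and 6.55 in Bcl2 control cells and 6.83, 6.99 and 6.61 in Bcl2 labelled deficient cells. The last group is the highest and overlaps no other pro-B group. Control replicates 1 and 3 are the arrays below background, with detection values of 0.936 and 0.707.

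Id2 had 3 probes, and among the pro-B arrays its account rests on 1 of them. The probe ILMN_1236868, designed on the cDNA AK013239, was above background on all 15 arrays. It read 7.88, 8.00 and 8.84 in control cells and 8.39, 8.98 and 8.54 in labelled deficient cells. It read 7.77, 7.44 and 7.88 in Bcl2 control cells and 9.32, 9.45 and 9.49 in Bcl2 labelled deficient cells. The Bcl2 labelled deficient arrays lie above all 9 others, and control replicate 3 lies apart from the other controls. The probe ILMN_1228557, on the RefSeq transcript NM_010496, was above background on 1 of 12 pro-B arrays, labelled deficient replicate 3, and on 3 of 3 DN3 arrays. The probe ILMN_2887239, on the same transcript, was above background on 1 of 15 arrays. The rise of Id2 among pro-B cells described below was thus seen with 1 probe and could not be checked with the other probes.

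Id3 had 1 probe, ILMN_2687169, above background on all 15 arrays. It read 8.49, 8.34 and 8.65 in control cells and 8.24, 7.96 and 8.66 in labelled deficient cells. It read 7.92, 7.76 and 7.91 in Bcl2 control cells and 7.29, 7.61 and 7.65 in Bcl2 labelled deficient cells. Each Bcl2 group lies below both groups without Bcl2, and the Bcl2 labelled deficient arrays are the lowest 3.

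**Figure D1:**
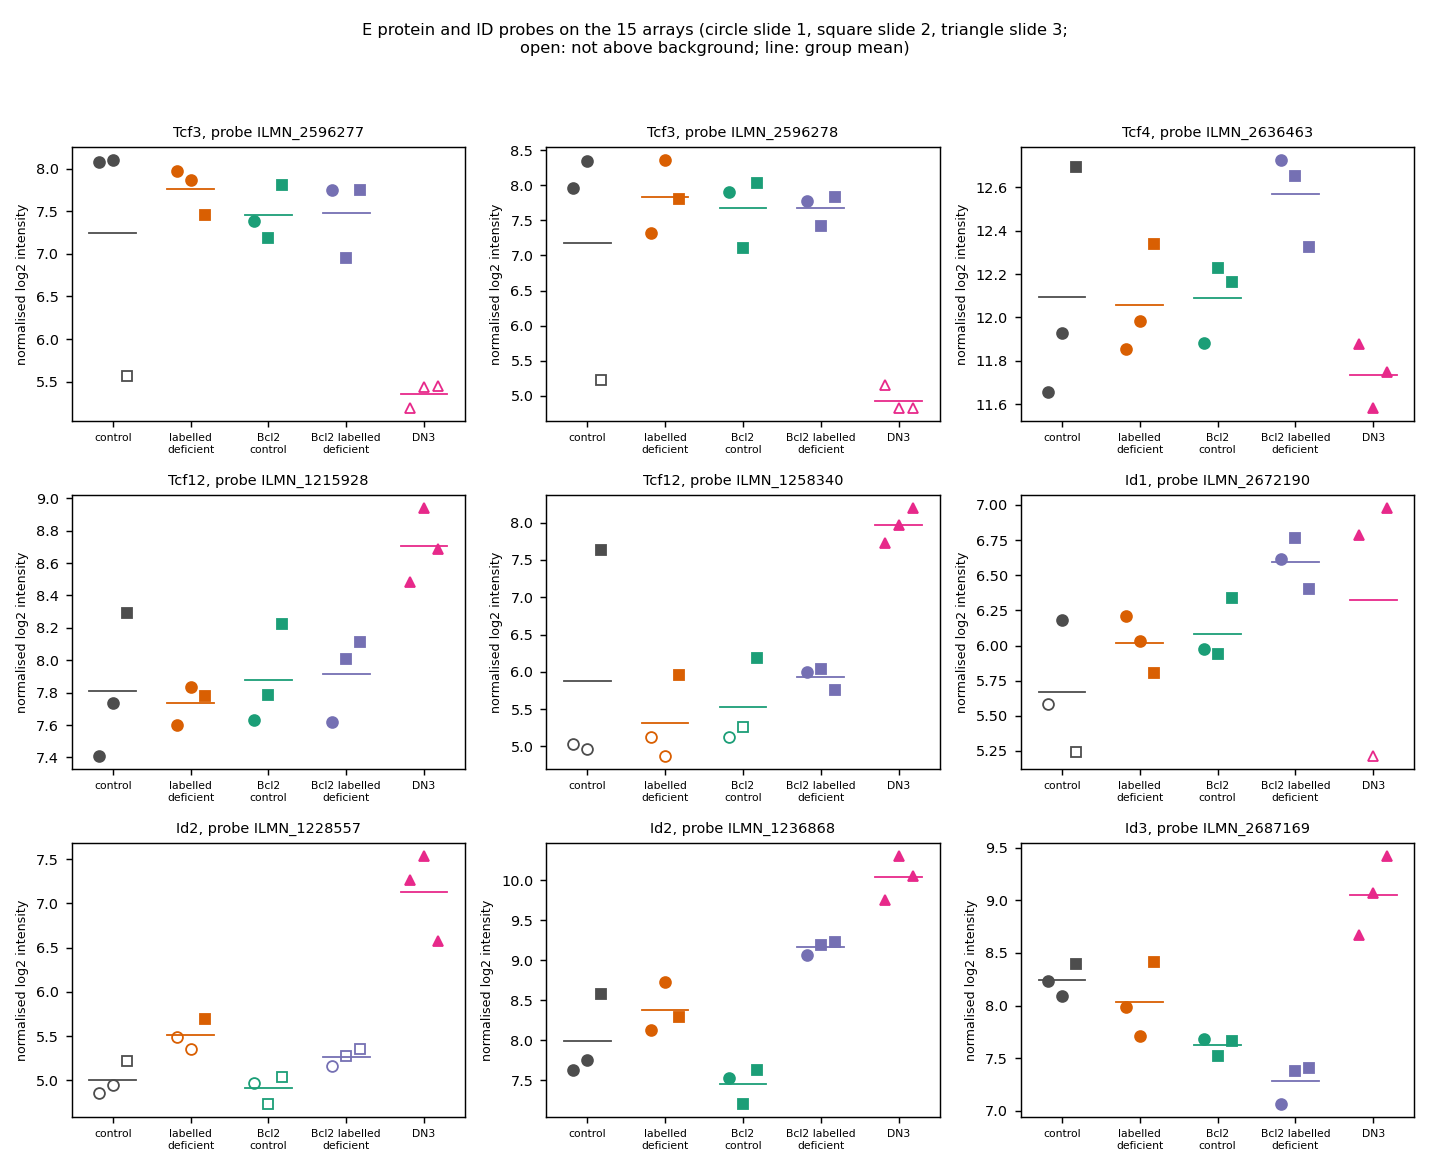
Normalised log2 intensity of the 9 probes above background on at least 3 of 15 arrays, by group, with all 15 arrays normalised together, so that values differ from those of the pro-B arrays alone. Each point is 1 array, open where it was not above background, its shape gives the slide (circle 1, square 2, triangle 3) and the line is the group mean; Id2 probe ILMN_1236868 is highest in DN3 and next in the Bcl2 labelled deficient arrays, and both Tcf3 probes are open in DN3 and in control replicate 3.

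The first comparison asks whether the label changes these genes in cells without added Bcl2. None of the 8 probes passed (limma over all kept probes, adjusted p under 0.05), where 0.0226% of all 17719 probes passed, so few calls were made of any kind. With the replicate number as a block within each Bcl2 background, 2 probes in place of 4 passed, and again none of the 8. At an unadjusted p under 0.05 in limma, 0 of the 8 and 1097 of the 17719 probes passed. Id2 differed by 0.40 ± 0.26 (adjusted p = 0.803), Id1 by 0.37 ± 0.25 and Id3 by -0.21 ± 0.20. The 2 Tcf3 probes differed by 0.54 ± 0.57 and 0.68 ± 0.67, and these signs rest on control replicate 3. Without that array Tcf3 gave -0.33 with both probes and Id2 gave 0.70 ± 0.19 (limma adjusted p = 0.321). The 95% interval for Tcf4 ran from -0.60 to 0.53 and that for Tcf12 (ILMN_1215928) from -0.62 to 0.47, both around a difference near 0. With any 1 array left out, the difference ran from -0.25 to 0.26 for Tcf4 and from -0.28 to 0.17 for that Tcf12 probe.

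With Bcl2, Id2 was the member that changed by the label. It rose 3.31-fold, by 1.73 ± 0.26 on the log2 scale (95% interval 1.16 to 2.29, limma adjusted p = 0.000688), with 3 of 3 labelled deficient arrays above all Bcl2 controls. It was the 1 of 8 probes that passed, where 20.3% of all probes passed. Within slide 2, which holds 2 labelled deficient arrays and 2 controls, the difference was 1.81 (limma adjusted p = 0.0013). Within slide 1, with 1 array on each side, it was 1.55, which carries no spread of its own (limma adjusted p = 0.0814, with the spread taken from the groups without Bcl2). With the slide as a block it passed. The remaining ID genes had smaller differences, of 0.54 ± 0.25 for Id1 (limma adjusted p = 0.168) and -0.35 ± 0.20 for Id3 (adjusted p = 0.275). Tcf4 differed by 0.48 ± 0.26 (adjusted p = 0.241). These 3 and Id2 are the 4 probes whose groups do not overlap, where 49.5% of all probes do not overlap. Both Tcf3 probes differed by under 0.1, at 0.03 and -0.00, with 95% intervals of -1.22 to 1.27 and -1.46 to 1.46. Tcf12 gave 0.03 ± 0.25 with ILMN_1215928.

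Genes listed as markers of other cell types also changed in the same comparison, which does not by itself show a change in those cells. Of 6 conventional dendritic cell genes, 3 rose, Zbtb46, H2-Ab1 and Cd74, where 23% of all genes passed. With the replicate block within each Bcl2 background 5 rose, where 24.7% of all genes passed. Zbtb46 was above background on 3 of 3 Bcl2 labelled deficient arrays and on no others. It was kept only through the group where it is high, so its call gives these shares no support. Xcr1, which passed only with the block, was kept through 2 Bcl2 labelled deficient arrays and 1 labelled deficient array. The list median was 1.23 on the log2 scale against 0.04 over all genes. Their mean level, with all 15 arrays normalised together, was 6.68 to 7.34 in Bcl2 control arrays and 8.08 to 8.69 in Bcl2 labelled deficient arrays, and Itgax, Flt3 and Batf3 were not above background on enough arrays to be kept. Of 10 neutrophil and monocyte genes, 4 rose, Lyz1, Lyz2, Fcgr3 and Cebpb. The list's mean levels, over the 11 genes kept with all 15 arrays, were 5.60 to 5.86 and 6.42 to 6.81 in the same groups. Mpo and S100a8 were above background on no array of either group. In the groups without Bcl2 that list's mean level was 7.84 to 8.52. Of 3 natural killer and innate lymphoid genes, 0 rose and 1 fell. Of 7 plasmacytoid dendritic cell genes, the cells Tcf4 is known for, 2 rose and 5 did not pass, with a list median of -0.18. With the replicate block within each Bcl2 background 2 rose and 1 fell, Cox6a2 at -1.81 ± 0.24 (limma adjusted p = 0.00165). The part of these cells in the Id2 and Tcf4 differences was not tested.

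The interaction asks whether the effect of the label on a gene is larger with Bcl2 than without. For Id2 it was, by 1.33 ± 0.37 (95% interval 0.53 to 2.13, limma adjusted p = 0.0481). It was the 1 of 8 probes that passed, where 7.9% of all probes passed. The adjusted p lies close to the threshold. With the replicate number as a block within each Bcl2 background, where the numbers pair the arrays, the same value did not pass (limma adjusted p = 0.0604). The adjusted p was above the threshold in 13 of 26 alternatives, over which the adjusted p ran from 0.00686 to 0.520. The value was 0.80 within slide 1 and 2.11 within slide 2, where the only control array is replicate 3, and 1.03 without control replicate 3 (limma adjusted p = 0.0215). The intervals for the E proteins were wide, at -0.29 to 1.31 for Tcf4 and -0.67 to 0.88 for Tcf12 (ILMN_1215928).

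Adding Bcl2 was compared within each label. In control cells none of the 8 probes passed by limma, where 6.91% of all probes passed. At an unadjusted p under 0.05, 1 of the 8, Id3, and 3944 of all probes passed. Id3 differed by -0.63 ± 0.20 (adjusted p = 0.0892), with all 3 Bcl2 arrays below all controls. It was 1 of 8 probes without overlap, where 23.1% of all probes do not overlap. With the slide as a block Id3 fell by 0.71 (limma adjusted p = 0.0312), which passed. Id2 differed by -0.54 ± 0.26 (adjusted p = 0.246), and by -0.72 to -0.24 with any 1 array left out. Of the 10 neutrophil and monocyte genes, 6 fell in this comparison, where 7.15% of all genes passed, with a list median of -1.33. Their mean level was 7.84 to 8.33 in control arrays and 5.60 to 5.86 in Bcl2 control arrays, and the part of such cells in the Id3 difference was not tested.

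In labelled deficient cells, Bcl2 went with more Id2 and less Id3. Id2 rose by 0.79 ± 0.26 (limma adjusted p = 0.0345) and Id3 fell by 0.77 on the log2 scale (SE 0.20, limma adjusted p = 0.0115), each without overlap of the arrays. These were 2 of 8 probes, where 35.1% of all probes passed, 18.3% higher and 16.8% lower. The Id2 call was lost in 9 of 26 alternatives, among them the slide as a block (0.72, limma adjusted p = 0.0504). It was also lost without labelled deficient replicate 1 or 3, or without any 1 of the Bcl2 labelled deficient arrays. The Id3 call was lost in 4 of 26, among them without labelled deficient replicate 3 (limma adjusted p = 0.0502) and without Bcl2 labelled deficient replicate 1 (0.0564). Id1 differed by 0.61 ± 0.25 (limma adjusted p = 0.0819) and also did not overlap, which makes 3 of 8 such probes against 59.4% of all probes. Without control replicate 3, Id1 and Tcf4 passed too, at 0.62 (limma adjusted p = 0.0243) and 0.51 (0.0296). Of the 10 neutrophil and monocyte genes, 6 fell and 2 rose, where 37.8% of all genes passed, with a list median of -1.76. Their mean level was 7.96 to 8.52 in labelled deficient arrays and 6.42 to 6.81 in Bcl2 labelled deficient arrays, and the part of such cells in the Id2 and Id3 differences was not tested. The comparisons above share groups with one another, so their values are not independent.

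**Figure D2:**
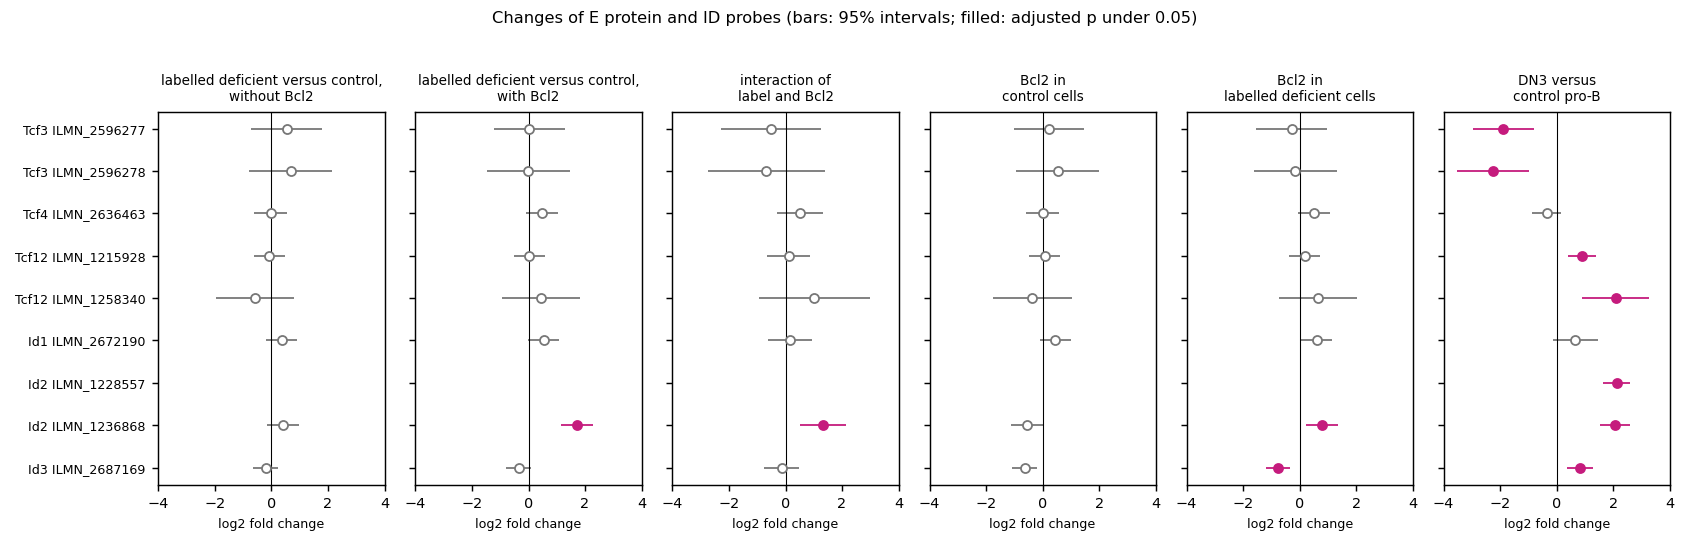
Log2 fold changes of the E protein and ID probes in the 6 comparisons, with 95% intervals, filled where the limma adjusted p is under 0.05. Id2 probe ILMN_1236868 is filled in 4 panels and Id3 in 2, and the E protein probes are filled only in the comparison of DN3 with control pro-B cells; ILMN_1228557 of Id2 was tested only there.

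The DN3 comparison sets an early T cell stage against control pro-B cells, with all 15 arrays normalised together. Genotype (Bcl11bCKO/CKO against wild type), strain, slide, tissue and the lack of background subtraction on the DN3 arrays go with the cell type. They cannot be told apart from it. Of 9 probes, 7 passed, 5 higher and 2 lower in DN3, where 43% of all 18843 probes passed, 19.8% higher and 23.2% lower. The groups of those 7 do not overlap, where 44.6% of all probes do not overlap. The share of the members called is above that background, but 9 probes of 6 genes are few, and several share a gene. Id2 probe ILMN_1228557, 1 of the 7, was kept only through its signal on the DN3 arrays, so its call gives that share no support.

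Among the E proteins, Tcf3 was lower and Tcf12 higher in DN3. On this scale Tcf3 probe ILMN_2596277 read 8.07, 8.10 and 5.57 in control cells and 5.19, 5.44 and 5.45 in DN3. No DN3 array was above background with either Tcf3 probe, so only a bound can be given. Tcf3 was at least 2.80-fold lower by this probe (limma adjusted p = 0.00834) and at least 2.66-fold lower by ILMN_2596278 (adjusted p = 0.00763). The control mean includes replicate 3, and without it the bounds were at least 5.01-fold and at least 5.24-fold lower. Tcf12 probe ILMN_1215928 read 7.41, 7.74 and 8.29 in control cells and 8.48, 8.94 and 8.69 in DN3, a rise of 0.89 ± 0.24 (adjusted p = 0.00782). The probe ILMN_1258340 of Tcf12 read 5.03, 4.96 and 7.64 against 7.72, 7.97 and 8.20, a rise of 2.09 ± 0.56 (adjusted p = 0.0080). Control replicates 1 and 2 were below background with that probe, and without replicate 3 it was at least 4.88-fold higher in DN3. Both Tcf12 probes thus rose. Tcf4 read 11.66, 11.93 and 12.69 in control cells and 11.88, 11.58 and 11.75 in DN3. Its difference of -0.36 ± 0.24 did not pass (adjusted p = 0.249), and ran from -0.57 to -0.06 with any 1 array left out.

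All measured ID probes but that of Id1 rose in DN3. Id2 probe ILMN_1236868 read 7.63, 7.75 and 8.58 in control cells and 9.76, 10.31 and 10.06 in DN3, a rise of 2.05 ± 0.25 (limma adjusted p = 1.5e-05). The probe ILMN_1228557 of Id2 read 4.86, 4.94 and 5.21, all below background, against 7.27, 7.54 and 6.57. Id2 was at least 2.21-fold higher by that probe, which was kept only through the DN3 arrays. Id3 read 8.23, 8.09 and 8.40 in control cells and 8.67, 9.07 and 9.43 in DN3, a rise of 0.82 ± 0.22 (limma adjusted p = 0.00794). Id1 read 6.78, 5.21 and 6.98 in DN3, with replicate 2 below background, and differed by 0.66 ± 0.37 (limma adjusted p = 0.170). Without that array Id1 passed, at 1.23 (limma adjusted p = 0.00301).

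The size of these differences depends on how the dimmer DN3 arrays are scaled. Over all probes the median log2 fold change was -0.10, and -0.15 with each array scaled to its 75th percentile. The share of higher calls among all calls went from 46.1% to 31.5%. Under that scaling Id3 gave 0.34 (limma adjusted p = 0.236) and Tcf12 ILMN_1215928 gave 0.47 (adjusted p = 0.0728), so neither passed. Tcf4 then gave -1.24 (adjusted p = 0.000138). On the authors' scores, which are not on a log scale, Id3 and that Tcf12 probe were lower in DN3.

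Genes listed as markers of cells other than T cells also differed. Of 10 stromal and endothelial genes, 7 rose in DN3, among them Cxcl12 and Bgn, where 44.1% of all genes passed, 20.4% higher. On each DN3 array 8 to 10 were above background, against 1 to 3 on the pro-B arrays, and only 3 were kept over the pro-B arrays alone. Their mean level was 7.87 to 8.95 in DN3 and 5.47 to 5.56 in control cells. All 5 natural killer and innate lymphoid genes measured rose, Klrd1, Nkg7, Prf1, Gata3 and Rora. Of these, Gata3 and Rora were above background on no pro-B array. The mean levels of the list were 9.35 to 10.07 in DN3 and 6.20 to 6.85 in control cells. Ncr1, Klrb1c, Il2rb, Gzmb, Eomes and Tbx21 were not above background on enough arrays to be kept. A rise of the 5 genes does not by itself show that such cells were present. The part of such cells in the ID differences was not tested.

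Ordered by mean over all 15 arrays, Id2 (ILMN_1236868) rose from Bcl2 control (7.45) through control (7.99) and labelled deficient (8.38) to Bcl2 labelled deficient (9.16) and DN3 (10.04). The 2 upper steps are without overlap, while the lower 3 groups overlap with their neighbours. Id3 ran from Bcl2 labelled deficient (7.28) through Bcl2 control (7.62), labelled deficient (8.04) and control (8.24) to DN3 (9.05), and only labelled deficient and control overlap. For Tcf4 and Id1 every pair of neighbours overlaps. For Tcf3 (ILMN_2596277) only DN3, the lowest, and for Tcf12 (ILMN_1215928) only DN3, the highest, stands apart from its neighbour.

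The balance of the family was described per array as the mean change of the 3 E protein genes from the control mean, minus the same mean over the 3 ID genes. It uses the brightest kept probe of each gene and carries no test. For Tcf3 this is ILMN_2596278 with the pro-B arrays normalised alone and ILMN_2596277 with all 15 arrays normalised together. Among the pro-B arrays it was 0.14, 0.27 and -0.42 in control cells and -0.25, 0.18 and 0.09 in labelled deficient cells. It was 0.36, 0.43 and 0.54 in Bcl2 control cells and 0.06, -0.15 and 0.01 in Bcl2 labelled deficient cells. Bcl2 control cells were at 0.44 ± 0.09 (mean ± SD, n = 3), above every array of the other pro-B groups. This combines an E protein change of 0.20 ± 0.23 with an ID change of -0.24 ± 0.17. With all 15 arrays normalised together, and so with the other Tcf3 probe, the mean was 0.34. Bcl2 control replicate 1, at 0.152, then lay below control replicate 2, at 0.164, so the groups overlapped. The Tcf3 change of Bcl2 control replicate 1 was 0.76 with the first probe and 0.13 with the other. Bcl2 labelled deficient cells, at -0.03 ± 0.11, had a mean E protein change of 0.37 ± 0.03 beside a mean ID change of 0.40 ± 0.10. Without control replicate 3 as part of the reference, the Bcl2 control mean was 0.23 and the Bcl2 labelled deficient mean -0.24. In DN3, with all 15 arrays, the balance was -1.64, -1.30 and -1.95, a mean of -1.63 ± 0.33. This combines an E protein change of -0.45 ± 0.07 with an ID change of 1.18 ± 0.32. Tcf3 lies below background in DN3, so its fall there is bounded and not measured.

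**Figure D3:**
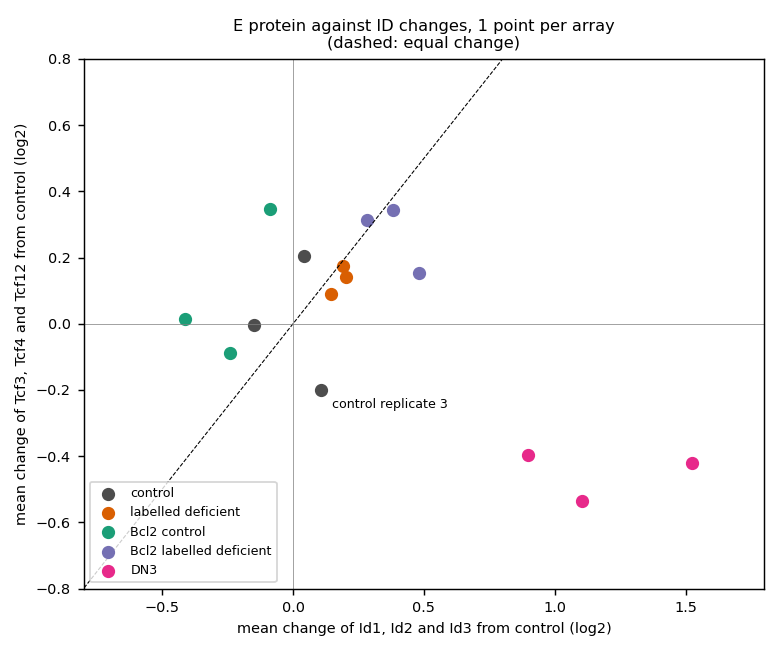
Mean log2 change from the control mean of the 3 E protein genes (vertical) against that of the 3 ID genes (horizontal), 1 point per array, with all 15 arrays normalised together; the dashed line is equal change. The 3 DN3 arrays lie far to the right and below the line, the 3 Bcl2 control arrays and control replicates 1 and 2 above it, and control replicate 3 below the other controls.

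Genes known from other work as targets of E proteins were taken as a list of 24, of which 20 were measured in pro-B cells. Without Bcl2, 0 of the 20 passed by the label in limma, where 0.031% of all genes passed, and 1 had an unadjusted p under 0.05. With Bcl2, 10 rose and 1 fell, with a list median of 0.65 on the log2 scale against 0.04 over all genes, where 23% of all genes passed, 11.7% higher and 11.3% lower. Socs3, a brake on cytokine signalling, rose by 2.13 ± 0.22 (limma adjusted p = 4.7e-05). Dntt, the enzyme that adds bases at V(D)J joints, rose by 1.85 ± 0.28, and Foxo1, a transcription factor of early B cells, by 1.17 ± 0.19 (limma adjusted p = 0.000792 and 0.0011). Gfi1, a transcriptional repressor, fell by 1.31 on the log2 scale (SE 0.20, adjusted p = 0.000764). The surrogate light chain genes Igll1 and Vpreb1, the receptor adaptor Blnk and Ebf1 were among the 9 that did not pass. Of 9 early B cell genes in all, 4 rose in the same comparison, and both lists share members.

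With Bcl2 in control cells, 4 of the 20 target genes rose and 1 fell, where 7.15% of all genes passed, 3.86% higher and 3.29% lower. Il7r, the receptor for IL-7, rose by 1.15 ± 0.18 and Dntt fell by 1.15 on the log2 scale (limma adjusted p = 0.00245 and 0.0331). In labelled deficient cells, 9 rose and 3 fell, where 37.8% of all genes passed, 20.3% higher and 17.5% lower. The highest of these was Rag1, a subunit of the V(D)J recombinase, with a rise of 2.82 ± 0.37 (limma adjusted p = 0.000137). Cdkn1a, a cell cycle inhibitor, rose by 2.58 ± 0.27. In the interaction, 4 rose and 1 fell, where 8.93% of all genes passed, 3.7% higher and 5.23% lower. Socs3 gave 2.24 ± 0.31 (limma adjusted p = 0.00112).

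In DN3, 22 target genes were measured, of which 9 were higher and 9 lower, where 44.1% of all genes passed, 20.4% higher and 23.7% lower. The lower ones were led by B cell genes: Igll1 was at least 750-fold lower and Vpreb1 at least 304-fold lower, and Ebf1, above background on 1 of 3 DN3 arrays, averaged 5.64 there against 10.83 in control cells. The higher ones were led by Cd3e, a chain of the T cell receptor complex, which was at least 183-fold higher. Cd3e and Ptcra were kept only through the DN3 arrays. The list median was -0.47 against -0.07 over all genes.

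**Figure D4:**
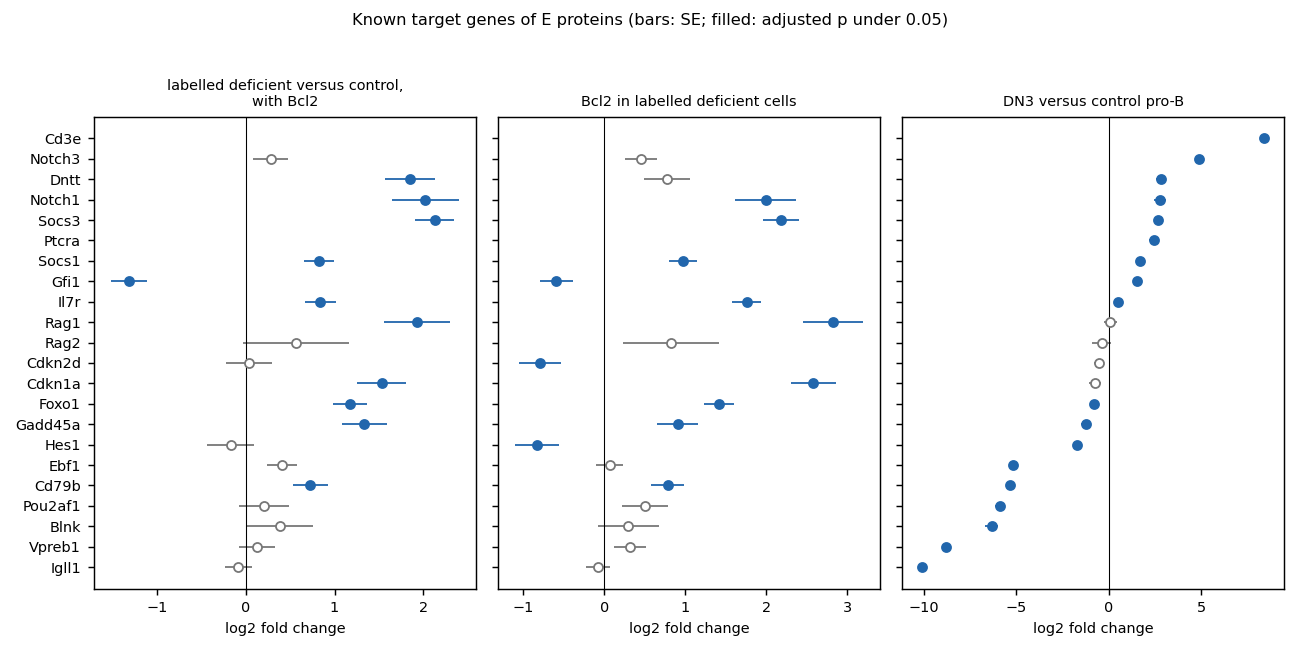
Log2 fold changes (points) with SE (bars) of the known E protein target genes in 3 comparisons, filled where the limma adjusted p is under 0.05; the horizontal scales differ between panels. With Bcl2, 10 of 20 rose and Gfi1 fell by the label, and in DN3 the B cell genes Igll1 and Vpreb1 are lowest and Cd3e is highest.

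Partners and cofactors of the family formed further lists. By the label without Bcl2, none of their genes passed, where 0.031% of all genes passed. Nor did any gene for turnover or for the control of ID genes. Of 6 genes for other helix-loop-helix partners or E-box competitors, Zeb1, a repressor that binds E-boxes, rose by the label with Bcl2, by 0.99 ± 0.19 (limma adjusted p = 0.00328). It was the 1 of 6 that passed, where 23% of all genes passed. Of 11 cofactors 0 passed there by limma, and 1 had an unadjusted p under 0.05. With the replicate block within each Bcl2 background 1 cofactor passed, where 24.7% of all genes passed. This was Ep300, which binds E proteins as a coactivator, at 0.61 ± 0.17 (limma adjusted p = 0.0425). In both Bcl2 comparisons the corepressor gene Cbfa2t3, whose protein family binds E proteins, was lower, at -1.97 ± 0.33 in control and -1.62 ± 0.33 in labelled deficient cells (limma adjusted p = 0.00433 and 0.00268). In control cells it was the 1 of 11 cofactors that passed, where 7.15% of all genes passed. In labelled deficient cells 3 of 11 cofactors rose, Ep300, Ldb1 and Tcf25, by 0.82, 0.74 and 0.61, and 1 fell. There 37.8% of all genes passed, 20.3% higher, so the list's share is near that background.

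Of 10 genes for the turnover of E and ID proteins, 2 fell by the label with Bcl2, a share near the 23% of all genes that passed. Usp1, which removes ubiquitin from ID proteins, fell by 0.97 on the log2 scale (SE 0.22, limma adjusted p = 0.0098), and the ubiquitin ligase gene Nedd4 was at least 1.73-fold lower. Usp1 also fell with Bcl2, by 0.95 in control and 1.57 in labelled deficient cells (limma adjusted p = 0.0273 and 0.000252). In labelled deficient cells Nedd4 was at least 1.96-fold lower and Cops5 fell by 0.67, while Anapc2, a subunit of the ligase that marks ID proteins for destruction, rose by 0.48. These 4 of 10 stand beside 37.8% of all genes, so the list's share is near that background.

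Of 16 genes known to induce or repress ID genes, 4 rose by the label with Bcl2, where 23% of all genes passed, so the share is near that background. Egr3 and Egr2, factors that induce Id3 in thymocytes, rose by 1.55 ± 0.37 and 1.10 ± 0.31 (limma adjusted p = 0.0122 and 0.0251), Egr2 being above background on 1 of 3 Bcl2 control arrays. Tgfbr2, a TGF-beta receptor, rose by 0.69 ± 0.19 and Xbp1 by 0.65 ± 0.19. With Bcl2 in control cells 2 rose, where 7.15% of all genes passed, Egr3 by at least 2.77-fold and Tgfbr2 by 0.79 ± 0.19. In labelled deficient cells 7 rose and 0 fell, where 37.8% of all genes passed, 20.3% higher, with Egr3 at 3.12 ± 0.37 and Tgfbr2 at 1.52 ± 0.19, and with Smad5, a transducer of BMP signals, at 0.75 ± 0.17. Id3 itself was lower in that comparison, as given above.

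In DN3 these lists changed in both directions, where 44.1% of all genes passed, 20.4% higher and 23.7% lower. Of 8 partners and competitors, 3 were higher and 4 lower, with Snai3 at least 40.4-fold higher. Only 6 of them were kept over the pro-B arrays alone. Snai3 and Snai2 were kept only through the DN3 arrays, so they give these counts no support. Lyl1, an E protein partner of blood progenitors, fell by 4.53 on the log2 scale. Of 11 cofactors 2 were higher and 2 lower, and Lmo2, which bridges E protein complexes, was at least 43.9-fold lower. Of 10 turnover genes 1 was higher and 4 lower, and Cul1 fell by 2.07 and Anapc2 fell by 1.19. Of 17 inducers and repressors 7 were higher and 4 lower, with Egr1 at 2.56 ± 0.38 and Egr3 at least 4.82-fold higher. Smad6, 1 of the 17, was kept only through the DN3 arrays. Irf8, above background on 1 of 3 DN3 arrays, averaged 5.99 there against 9.11 in control cells. Id4, the fourth ID gene, was not above background on enough arrays to be tested.

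The genes whose pattern over the 12 pro-B arrays was closest to that of Id2 and Id3 were found among 9686 others. Likeness was the root mean square difference of log2 intensity after centring each probe. Nearest to Id2 were Tspan17, Cyth4 and Plxnd1, at 0.25, 0.26 and 0.27. Tspan17 averaged 8.34 in Bcl2 control and 9.81 in Bcl2 labelled deficient arrays. Nearest to Id3 were Slc35e1, Pet100 and Mrnip, each at 0.15. Mrnip averaged 9.49 in control and 8.49 in Bcl2 labelled deficient arrays.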

How the data were processed

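Per the labels' protocols, RNA was extracted with a Qiagen kit and biotin-labelled for Illumina arrays, 1 array per sample. The design text names 3 batches of pro-B culture, and p-values rest on the spread between their arrays. The deposited scanner table holds linear intensities, not normalised between arrays. On the pro-B arrays 33.2 to 39.9% of probes lay below 0, which background subtraction gives, and on the DN3 arrays none did. The detection value, as deposited, is a fraction. The deposited series matrix gives each probe a score, which from the values is the intensity centred and scaled over the 15 arrays, and served as an alternative only. The sources used here do not name the scanner software.

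From the deposited intensities, log2 values were made with neqc of limma 3.58.1 (R 4.3.3), which uses detection p, an offset of 16 and quantile normalisation. Probes with detection p under 0.05 on at least 3 arrays were kept. One mean per group was fitted (lmFit, eBayes) over 12 pro-B arrays, or all 15 for DN3, with Benjamini-Hochberg adjustment over all kept probes within each comparison. The script was tested on simulated data. The number of arrays limits the precision, and with 3 arrays a side the smallest two-sided p of an exact permutation test is 0.1. Where all arrays of 1 group were below background for a probe, "at least N-fold" sets the bright group's mean against, per array, the lowest signal among probes above background or the probe's own if higher. For lists, each gene is its brightest kept probe. Names came from the platform annotation, which gives 1 symbol to 34874 probes, several to 18 and does not list 10371. The 6 members were taken whole. From each list, up to 4 genes with the smallest p are named, with others counted or named after their values were seen. The 3 genes most like a member are named where its brightest probe passed in a pro-B comparison. The members and lists were chosen with earlier results of these data known. Same-numbered replicates paired within each Bcl2 background, where all 6 correlations of their deviations from the group means were over 0.1 (0.249 to 0.396), and not across backgrounds, where 5 of 12 were (-0.204 to 0.314). The pairing is read from the data. Slide, replicate number, scaling, filters and each replicate were varied.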

Additional observations from a re-analysis of the deposited data

Results flagged for a closer look

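For Id2 (probe ILMN_1236868), the effect of the deficient label with Bcl2 differed from that without Bcl2 by 1.33 on the log2 scale, by the interaction term of the fit (limma adjusted p = 0.0481). The label difference was 1.73 with Bcl2 and 0.40 without it. The value stayed above 0 in all 26 alternatives, and its adjusted p was under the threshold in 13 of them. Most removals of a single array lost the call. It was not under it with the replicate block within each Bcl2 background (limma adjusted p = 0.0604).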

How the results depend on the processing

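Counts are of the E protein and ID probes that passed, and other settings, such as another offset or a stricter detection limit, left each count within 1.5 times. By the label without Bcl2 (0) the count was 3 within slide 2. By the label with Bcl2 (1) it was 3 with array weights or only the 6 arrays compared, and 0 within slide 1. In the interaction (1) it was 0 with a floor in place of normexp, without a filter, on the authors' scores, within slide 1 and with the replicate block within each Bcl2 background, and 4 within slide 2. With Bcl2 in control cells (0) it was 1 with the slide as a block and 6 within slide 2. With Bcl2 in labelled deficient cells (2) it was 4 with array weights or only 6 arrays, 0 on the authors' scores, and 1 without a filter, with the slide as a block and within slide 1. In DN3 (7) it was 4 with only 6 arrays normalised or with 1 probe per gene, which tests fewer probes, 3 on the authors' scores and 2 with only 6 arrays fitted. On those scores Id3 reversed to -1.03 and Tcf12 ILMN_1215928 to -0.44. The cause was not tested. The replicate block within each Bcl2 background, where the numbers pair the arrays, changed no other call of a member (Id2 by the label with Bcl2 kept 1.73, limma adjusted p = 0.00268). It could not be fitted for the effect of Bcl2, since each block lies in 1 background. A plain replicate block, also over numbers that do not pair across backgrounds, left all counts as they were (1 for the label with Bcl2). Within slide 2 the only control array is replicate 3, and where a group has 1 array on a slide its spread is taken from the other groups.

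Leaving out 1 replicate gave counts of 0 to 0, 1 to 1, 0 to 1, 0 to 0, 0 to 4 and 7 to 8 in the same order. The balance then ran from -0.21 to 0.14 in labelled deficient cells, 0.23 to 0.58 in Bcl2 control cells, -0.24 to 0.11 in Bcl2 labelled deficient cells and -1.97 to -1.55 in DN3. For Bcl2 control cells it was 0.32 over all kept probes and 0.34 with all 15 arrays normalised together, which also changes the Tcf3 probe used. For DN3 it was -0.88 with only 6 arrays normalised. Signal over background limits Id1, Tcf3 in DN3 and the RefSeq probes of Id2.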
